A study of Mus musculus with 8 samples.

Results

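The 6 genes described here, Bcl6, Cxcr5, Tox, Tox2, Icos and Sh2d1a, are used to recognise T cells of the germinal centre, among them follicular regulatory T cells. They were taken by symbol from a table of 24108 named genes, by a list of names that sets no threshold on a measured value but was drawn up with earlier results of these data known. Each of the 6 had 1 row, and all 6 were among the 13989 genes that passed the filter on low counts. RNA was sequenced from sorted CD4 T cells of mouse mesenteric lymph nodes, in 4 populations of 2 libraries each.

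All animals had the same genotype, Foxp3DTR-GFP/Thy1.1 with CD4CreER/wt and R26lsl-tdTomato/wt. In this cross, Foxp3, the gene of the factor that defines regulatory T (Treg) cells, carries a diphtheria toxin receptor with GFP on one allele and Thy1.1 on the other. A Cre under CD4 control that works only after tamoxifen switches on the red protein tdTomato. The mice were raised with AVNM and on an amino acid-defined diet. They were given tamoxifen and diphtheria toxin over about 3 weeks, to mark CD4 T cells outside the thymus that lacked Foxp3. They were then moved to chow and given SPF fecal microbes. At 12 days after colonization, GFP cells and Thy1.1 cells were sorted, each with and without tdTomato; cells with tdTomato are called labelled here and cells without it unlabelled. By this design, a labelled cell sorted as GFP positive had Foxp3 reporter expression at the sort after having been marked as a cell without Foxp3. For the Thy1.1 allele no toxin receptor is described. Whether labelled Thy1.1 cells lacked Foxp3 when they were marked was not tested. Every population came from mice given tamoxifen, toxin, the diets and the microbes, so none was an untreated control. Age, sex, the number of animals and whether animals were pooled are not given in the labels, nor is what the Thy1.1 allele does besides marking cells. Nor is it stated that paired libraries of a population had separate mice as their source, and p-values then reflect only library-to-library spread, possibly technical. The Thy1.1 libraries are numbered 1 and 2, and the GFP libraries 3 and 4, as in the deposited table.

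Follicular helper T cells enter B cell follicles and help B cells through the germinal centre, and follicular Treg cells share much of that program while expressing Foxp3. BCL6 is a transcriptional repressor on which both cell types depend, and it opposes Blimp-1, the product of Prdm1. TOX and TOX2 are HMG-box factors induced by antigen receptor and calcineurin signals, and TOX2 supports the follicular program. CXCR5 is the receptor for CXCL13, the chemokine of the follicle. ICOS is a costimulatory receptor of the CD28 family that signals through PI3 kinase, and SAP, the product of Sh2d1a, is the adaptor of the SLAM receptors through which T cells hold on to B cells. ICOS, TOX and SAP are also found in activated T cells outside follicles, so none of the 6 genes defines by itself the follicular state.

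Library totals lay between 38085686 and 47908198 counts. Levels are given as CPM, the count scaled to a common library size, after TMM scaling. For a gene at 0 counts, 3 counts, the most that a count of 0 allows, stood for 0.0614 to 0.0806 CPM, an error of counting only. The sorted cells expressed the markers of their label: 8 of 9 CD4 T and Treg markers were in the table, and together they summed to 4280 to 5432 CPM. That sum hides markers that went opposite ways. In labelled GFP against labelled Thy1.1 cells, 2 of the 8 were called higher and 2 lower (8.01% and 6.82% of all tested genes). With the label among GFP cells, 3 were higher and 1 lower (6.24% and 6.40%). Foxp3 stood between 126 and 201 CPM, lowest in labelled GFP cells. Markers of other cells stood out in 2 libraries. Unlabelled GFP library 3 had 121 CPM over 10 myeloid and dendritic markers, with Siglech at 36.8 and H2-Aa at 34.0 CPM, against 4.37 to 38.8 CPM in the other 7. Labelled GFP library 3 had the 38.8 CPM, with Lyz2 at 21.9 CPM, and 47.5 CPM over 3 erythroid markers, against 1.73 to 5.37 CPM elsewhere. B cell markers, 10 in number, summed to 42.8 to 53.7 CPM in Thy1.1 cells and 24.4 to 30.8 CPM in GFP cells. Cd79b was the main part in Thy1.1 cells, at 28.8 to 32.8 CPM, and stood at 3.68 to 14.4 CPM in GFP cells. Of 6 markers of germinal centre B cells, Mef2b was at 0 in every library and Rgs13 reached 0.348 CPM. Bach2, also a gene of naive T cells, stood at 556 and 641 CPM in unlabelled and 116 and 141.5 CPM in labelled GFP cells. S1pr2, also a gene of follicular T cells, ran the other way, at 36.4 and 21.9 CPM in unlabelled and 64.5 and 44.9 CPM in labelled GFP cells, with 19.0 to 33.5 CPM in Thy1.1 cells. Markers of plasma cells (5, mostly Xbp1), CD8 T and NK cells (7) and stromal cells (7, mostly Pecam1) summed to 172 to 330.4, 13.4 to 41.0 and 154 to 316 CPM. Beyond the values without the libraries numbered 3, their part in the results below was not tested. In bulk samples such as these, fewer cells of a type and less RNA per cell cannot be told apart.

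The 6 genes did not move together. Tox2 and Sh2d1a were higher in all 4 labelled than in all 4 unlabelled libraries. Both labelled libraries lay above both unlabelled ones for 23.2% of all tested genes among Thy1.1 cells and 28.9% among GFP cells. The share of genes that separates all 8 libraries is not given here. With Icos, Tox2 and Sh2d1a rose by the test in labelled against unlabelled GFP cells. Icos also differed by reporter, with the highest levels in labelled GFP cells. Tox fell in labelled GFP against labelled Thy1.1 cells, so that Tox and Tox2 took different courses. Bcl6, the factor at the head of the program, passed the edgeR test in none of the 7 comparisons, nor did Cxcr5, which DESeq2 called in 1 of them.

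**Figure D1:**
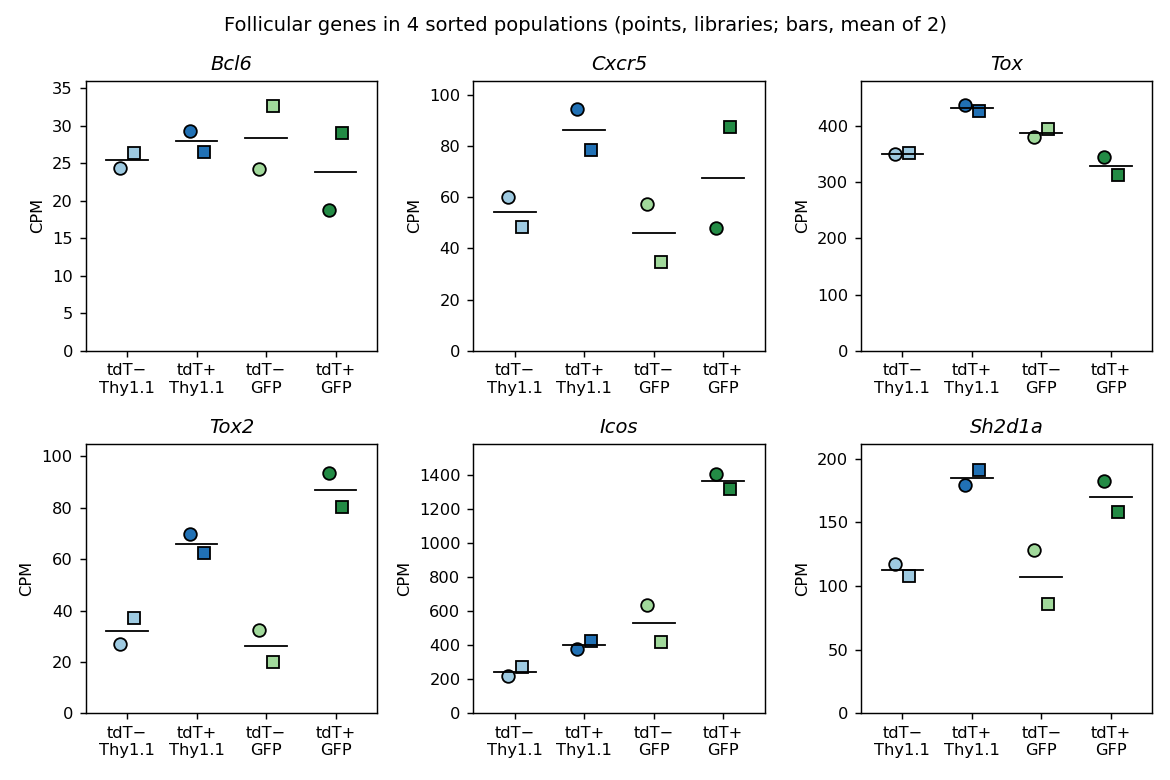
Levels of the 6 genes in CPM (vertical axis, from 0) in each of 8 libraries, by population; circles are library 1 or 3, squares library 2 or 4, and bars are the means of 2 libraries. Icos reached 1407 and 1320 CPM in labelled GFP cells, whereas Bcl6 stayed between 18.7 and 32.6 CPM throughout.

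Bcl6 was the least expressed of the 6 genes per length, at a mean of 3.94 CPM per kb of exon over the 8 libraries. Its level was 24.3 and 26.4 CPM in unlabelled Thy1.1 cells, 29.3 and 26.5 in labelled Thy1.1 cells, 24.2 and 32.6 in unlabelled GFP cells, and 18.7 and 29.1 in labelled GFP cells. The GFP libraries of one population differed from each other by more than the population means did, and within GFP cells the populations overlapped. The log2 difference between labelled and unlabelled GFP cells was -0.25 ± 0.25 (SE), with a 95% interval of -0.84 to 0.34 and an adjusted p of 0.570. Between labelled GFP and labelled Thy1.1 cells it was -0.23, with an interval of -0.81 to 0.36 and an adjusted p of 0.612. In the order of its population means, from 23.9 to 28.4 CPM, no neighbours differed beyond their spread.

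Tox was the second highest per length, at 49.2 CPM per kb, and varied least, with an SD of 0.17 in log2 CPM over the 8 libraries. It stood at 350.3 and 351 CPM in unlabelled Thy1.1 cells, 438 and 426 in labelled Thy1.1 cells, 379.7 and 394 in unlabelled GFP cells, and 345 and 312 in labelled GFP cells. Thy1.1 cells with tdTomato thus held the highest 2 libraries and GFP cells with tdTomato the lowest 2. Between those 2 populations Tox fell by 0.40 ± 0.08 on the log2 scale in GFP cells (SE; adjusted p = 0.0179), in both libraries against both. That call was lost without either labelled Thy1.1 library or without labelled GFP library 4, with adjusted p of up to 0.0923 over 15 alternatives.

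The sign of the label difference in Tox was opposite in the reporters. It was 0.30 ± 0.08 (SE) among Thy1.1 cells, with both labelled libraries above both unlabelled ones (adjusted p = 0.502), and -0.24 ± 0.08 among GFP cells, with both labelled libraries below (adjusted p = 0.102). The interaction of label and reporter, which tests that contrast directly, was -0.54 ± 0.12 (SE; adjusted p = 0.130). DESeq2 called it at an adjusted p of 0.00194, the only one of 15 alternatives to do so.

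Tox2, at 15.5 CPM per kb, had a wider spread, with an SD of 0.82 in log2 CPM. Its levels were 27.2 and 37.0 CPM in unlabelled Thy1.1 cells, 69.8 and 62.3 in labelled Thy1.1 cells, 32.4 and 19.8 in unlabelled GFP cells, and 93.4 and 80.3 in labelled GFP cells. All 4 labelled libraries lay above all 4 unlabelled ones. Among GFP cells Tox2 rose 3.33-fold with the label, from 26.1 ± 8.90 to 86.9 ± 9.25 CPM (SD, n = 2 each), a log2 difference of 1.74 ± 0.26 (SE; adjusted p = 0.00694). It was called in all 16 alternatives, with log2 differences of 1.38 to 2.13. Leaving out unlabelled GFP library 3, the one with dendritic cell markers, gave 2.13.

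Among Thy1.1 cells the label difference in Tox2 was 1.04 ± 0.25 (SE), with an interval of 0.46 to 1.62 and an adjusted p of 0.444. DESeq2 gave an adjusted p of 0.0120. The interaction was 0.69 ± 0.35 (SE; adjusted p = 0.456). Reporters did not separate Tox2 by the test: GFP cells minus Thy1.1 cells gave 0.40, with an interval of -0.18 to 0.97, where both were labelled, and -0.30 ± 0.25 (SE) where neither was. Labelled Thy1.1 cells exceeded unlabelled GFP cells by 1.34 ± 0.25 on the log2 scale, with an adjusted p just under 0.05 and a call kept in 6 of 15 alternatives.

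Cxcr5 averaged 19.1 CPM per kb. It measured 60.0 and 48.3 CPM in unlabelled Thy1.1 cells, 94.7 and 78.3 in labelled Thy1.1 cells, 57.3 and 34.6 in unlabelled GFP cells, and 47.99 and 87.4 in labelled GFP cells. The 2 libraries of labelled GFP cells lay so far apart that their range overlapped that of each other population, while labelled and unlabelled Thy1.1 cells did not overlap. The label difference was 0.68 ± 0.32 (SE) among Thy1.1 cells, with an interval of -0.06 to 1.42 and an adjusted p of 0.680, and 0.56 ± 0.32 among GFP cells, with an interval of -0.18 to 1.30 and an adjusted p of 0.294. The largest difference of Cxcr5 was between labelled Thy1.1 and unlabelled GFP cells, at 0.91 ± 0.32 (SE) with an interval of 0.17 to 1.66 and both libraries above both. Its adjusted p was 0.248 from edgeR and 0.0439 from DESeq2. Within GFP cells the label difference ran from 0.06 without labelled GFP library 4 to 0.97 without unlabelled GFP library 3. The reads do not mark strand and exons of Cxcr5 overlap those of Bcl9l in the GENCODE annotation. Bcl9l itself stood at 31.2 to 49.2 CPM in the other populations and at 18.7 and 19.9 CPM in labelled GFP cells, and its part in the Cxcr5 counts was not tested.

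Icos was the most expressed per length, at 185 CPM per kb, and the most variable, with an SD of 0.98 in log2 CPM. Its level was 220.0 and 270.5 CPM in unlabelled Thy1.1 cells, 379 and 424.5 in labelled Thy1.1 cells, 636 and 420.4 in unlabelled GFP cells, and 1407 and 1320 in labelled GFP cells. The last 2 libraries lay above the other 6 without overlap, while labelled Thy1.1 and unlabelled GFP cells overlapped. With the label, Icos rose 2.58-fold among GFP cells, from 528 ± 152 to 1364 ± 62.0 CPM (SD, n = 2 each), a log2 difference of 1.37 ± 0.19 (SE; adjusted p = 0.00531). It was called in all 16 alternatives, from 1.06 to 1.70. The smaller value came without unlabelled GFP library 4 and the larger without library 3 of that population.

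By reporter, Icos rose in GFP cells over Thy1.1 cells by 1.76 ± 0.19 on the log2 scale among labelled cells (SE; adjusted p = 0.00207), which was the largest difference of any member in this comparison. Among unlabelled cells the difference was 1.11 ± 0.19 (SE; adjusted p = 0.0641), with both GFP libraries above both Thy1.1 libraries. That difference was past the threshold in 4 of 15 alternatives, among them DESeq2 at 6.45e-08, and measured 0.78 without unlabelled GFP library 3, the one with dendritic cell markers, and 1.38 without library 4. Among Thy1.1 cells the label difference was 0.71 ± 0.19 (SE), with an interval of 0.28 to 1.14 and an adjusted p of 0.488. DESeq2 gave an adjusted p of 0.00836 there. The interaction was 0.66 ± 0.26 (SE; adjusted p = 0.355), so the label difference was not shown to differ between reporters. Of the neighbours in the order of Icos levels, unlabelled and labelled GFP cells differed by the test, and the steps below them did not.

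Sh2d1a averaged 26.1 CPM per kb. Its levels were 117 and 108 CPM in unlabelled Thy1.1 cells, 179 and 191 in labelled Thy1.1 cells, 128 and 85.6 in unlabelled GFP cells, and 182 and 158 in labelled GFP cells. As with Tox2, every labelled library was above every unlabelled one. Among GFP cells Sh2d1a rose 1.59-fold with the label, a log2 difference of 0.67 ± 0.18 (SE) with an interval of 0.25 to 1.09. Its adjusted p of 0.0499 lay at the threshold, and the call was lost in 12 of 16 alternatives, with adjusted p of up to 0.207. It was 0.99, with an adjusted p of 0.0101, without unlabelled GFP library 3. Exons of Sh2d1a overlap those of Tenm1, which stood at 0.212 to 1.38 CPM.

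The label difference in Sh2d1a among Thy1.1 cells was nearly the same size, 0.72 ± 0.18 (SE), with an interval of 0.30 to 1.14. The adjusted p was 0.465 from edgeR and 0.0162 from DESeq2. The interaction was -0.05 ± 0.26 (SE; adjusted p = 0.976). Reporter differences were small, at -0.12 (interval -0.54 to 0.30) among labelled and -0.07 ± 0.18 (SE) among unlabelled cells. Of its neighbours in order, labelled GFP cells exceeded unlabelled Thy1.1 cells by 0.60 (adjusted p = 0.0485), a call kept in 6 of 15 alternatives.

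**Figure D2:**
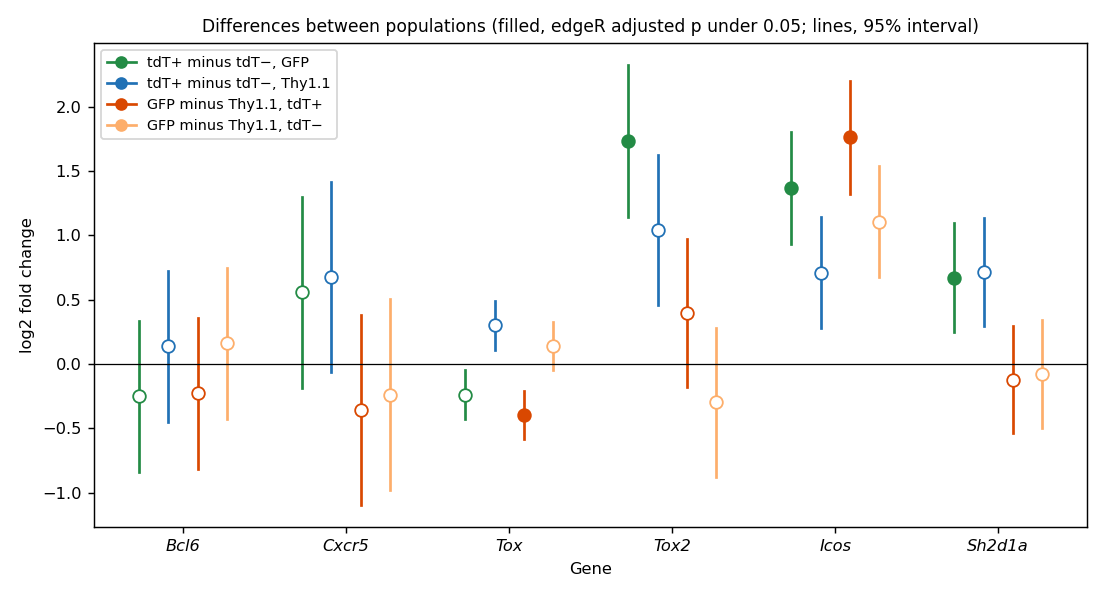
Log2 differences of the 6 genes (vertical axis) in the comparisons of label and reporter; filled points passed an adjusted p of 0.05, open points did not, and lines are 95% intervals (tdT+ is labelled, tdT− unlabelled). Filled points are Icos, Tox2 and Sh2d1a for the label among GFP cells, and Icos and Tox for the reporter among labelled cells.

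Counted by comparison, the label among GFP cells moved 3 of the 6 genes, all higher, where 12.6% of all tested genes were called, 6.24% higher and 6.40% lower. DESeq2 called Tox as well, lower. The reporter among labelled cells moved 2 of 6, where 14.8% of genes were called: Icos higher (8.01% called higher) and Tox lower (6.82% called lower). For the reporter among unlabelled cells 0 of 6 were called, against 0.164% of genes. DESeq2 called Icos, the one member with an unadjusted edgeR p under 0.05, which 11.9% of all tested genes had. For the label among Thy1.1 cells edgeR called 0 of 13989 genes and 1063 had an unadjusted p under 0.05, while DESeq2 called 148 genes with Tox2, Icos and Sh2d1a among them. In that comparison both labelled libraries lay above both unlabelled ones for 6 of the 6 genes, and 23.2% of all tested genes did the same. Labelled GFP against unlabelled Thy1.1 cells, which differ in both label and reporter, gave 3 of 6 genes higher (23.6% of genes called, 12.3% higher), with Icos at 2.48 ± 0.20 and Tox2 at 1.44 ± 0.25 (SE). Labelled Thy1.1 against unlabelled GFP cells gave 1 of 6 by edgeR, Tox2 (1.52% of genes called, 0.879% higher), at the threshold. There Tox2, Cxcr5 and Sh2d1a, 3 of the 6, had an unadjusted edgeR p under 0.05, as did 14.0% of all tested genes. DESeq2 called the same 3, all higher. The interaction gave 0 of 6 (0.443% of genes called). For the interaction 2 members, Tox and Icos, had an unadjusted p under 0.05, against 12.8% of all tested genes, and DESeq2 called Tox. These comparisons share populations, and so they are not independent of each other.

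Ratios within a library, which do not depend on its scaling, set the genes against partners that act beside or against them. Tox2 counts per 100 Tox counts were 7.75 and 10.5 in unlabelled Thy1.1 cells, 15.9 and 14.6 in labelled Thy1.1 cells, 8.53 and 5.03 in unlabelled GFP cells, and 27.1 and 25.8 in labelled GFP cells. Labelled libraries had the 4 highest ratios, those of GFP cells on top. Bcl6 counts per 100 counts of Prdm1 were 71.3 and 64.6, then 51.9 and 46.3, then 25.7 and 45.8, and 8.17 and 10.5, in the same order of populations. Prdm1 itself stood at 34.1 and 40.9 CPM in unlabelled Thy1.1 cells and at 229 and 277 CPM in labelled GFP cells. Icos counts per 100 counts of Cd28, the related costimulatory receptor, were 64.1 and 70.2, 102.9 and 92.3, 109.6 and 86.0, and 203 and 199 in the same order. Labelled GFP cells were thus the ones with more Icos than Cd28 counts by the widest margin.

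**Figure D3:**
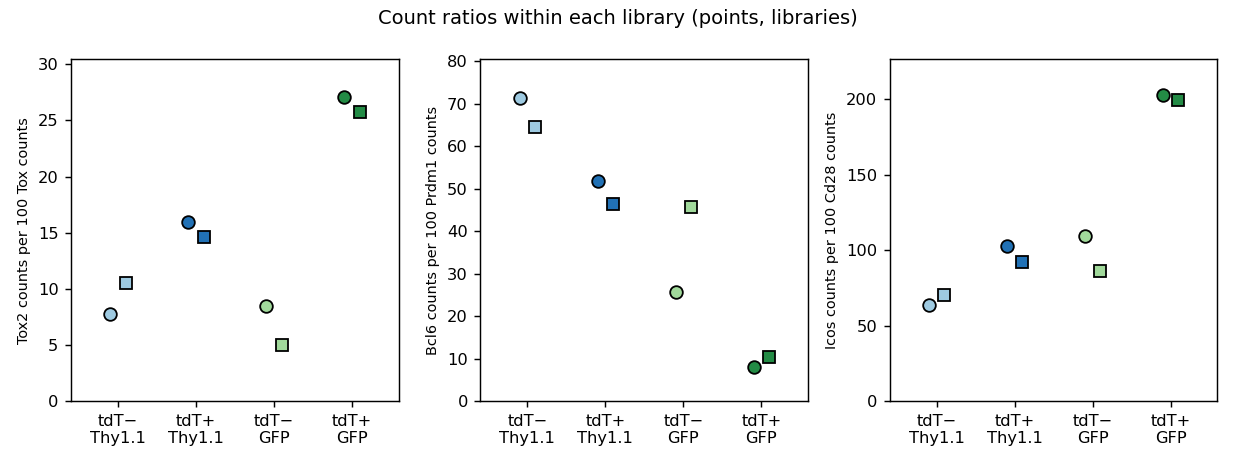
Count ratios within each of the 8 libraries (vertical axes, counts of the first gene per 100 counts of the second), by population; circles are library 1 or 3 and squares library 2 or 4. Bcl6 per 100 Prdm1 counts is 8.17 and 10.5 in labelled GFP cells, where Tox2 per 100 Tox counts reaches 27.1 and 25.8.

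With the label among GFP cells, 6.24% of all tested genes were called higher and 6.40% lower. Among 27 other tested genes of follicular helper and follicular Treg cells, 10 were called higher and 4 lower there. The median log2 difference was 0.87 over the list and 0.03 over all tested genes. Those higher included Pdcd1, the inhibitory receptor PD-1 of follicular T cells, at 1.09 ± 0.15 (SE; adjusted p = 0.00519), and Maf, a factor of IL-21 and IL-4 expression, at 1.46 ± 0.25 (adjusted p = 0.0113). Pdcd1 stood at 94.7 and 71.8 CPM in unlabelled and 189 and 167 CPM in labelled GFP cells. In Thy1.1 cells it stood at 106 and 102 CPM without the label and 157 and 143 CPM with it. Every labelled library was thus above every unlabelled one, as for Tox2 and Sh2d1a. The share of all genes in that order is not given here. Within a reporter, 28.9% of all tested genes among GFP cells and 23.2% among Thy1.1 cells had both labelled libraries above both unlabelled ones. Il4, the helper cytokine, rose by 4.81 ± 0.41 (adjusted p = 0.00108), with 1.56 and 0.792 CPM in unlabelled and 34.2 and 31.8 CPM in labelled cells. Ascl2, a factor that can induce Cxcr5, and Sostdc1 were at 0 counts in both unlabelled GFP libraries. Against 3 counts over the group, an allowance for counting error only, they stood 197-fold and 203-fold higher in labelled ones. That allowance leaves out the spread between libraries, so these folds are not lower limits. In the 2 unlabelled Thy1.1 libraries Ascl2 had 0 and 33 counts and Sostdc1 0 and 51. For the label among GFP cells the adjusted p of Ascl2 and Sostdc1 were 0.0464 and 0.0430 from edgeR. With both genes set at those folds the list's median was again 0.87.

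Those lower were Tcf7 and Lef1, factors that act upstream of Bcl6 in early follicular cells, with Il21r and Cd200. Tcf7 stood at 703 and 698 CPM in unlabelled and 348 and 446 CPM in labelled GFP cells, a log2 difference of -0.82 ± 0.12 (SE; adjusted p = 0.00694), and Lef1 fell by 1.55 ± 0.09. Il21, the cytokine of follicular helper cells, measured 8.93 and 2.00 CPM in unlabelled and 19.0 and 22.9 CPM in labelled GFP cells and did not pass the test (adjusted p = 0.262). Cxcl13 reached no more than 0.225 CPM and was not tested.

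Between the labelled populations, 8.01% of all tested genes were called higher in GFP cells and 6.82% lower. Labelled GFP against labelled Thy1.1 cells gave 9 higher and 4 lower of the same 27 genes. Their median was 0.60, against -0.01 over all genes. Il21 was among the higher ones, at 4.70 ± 1.18 (SE; adjusted p = 0.0344), with Thy1.1 libraries at 0.920 and 0.686 CPM. Angptl2 rose by 2.44 ± 0.19 (adjusted p = 0.000834) and Irf4, a factor of activated T cells, by 1.84 ± 0.36 (adjusted p = 0.0137). Pdcd1 differed by 0.24 ± 0.15 and did not pass the test (adjusted p = 0.321). Among unlabelled cells edgeR called 1 of the 27, Angptl2, higher in GFP cells by 1.41 ± 0.18 (adjusted p = 0.0441), where 0.164% of all genes were called. DESeq2 called 11 of the 27 there, and 14 had an unadjusted edgeR p under 0.05, against 11.9% of all tested genes. For the label among Thy1.1 cells edgeR called 0 of the 27, with 12 at an unadjusted p under 0.05, against 7.60% of all tested genes. DESeq2 called 4 there, and its totals over all genes are given further below.

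In labelled against unlabelled GFP cells, where 6.24% of all tested genes were called higher and 6.40% lower, a list of opposed genes was also read. Of these 20 genes, which oppose the follicular program or mark T cells outside follicles, 7 were higher and 7 lower, with a median of -0.01. Higher were Prdm1, at 1.61 ± 0.17 (SE; adjusted p = 0.00237), the Th1 factor gene Tbx21 at 2.33 ± 0.34, Id2 at 1.64 ± 0.33 and the cytotoxic granule gene Gzmb at 2.98 ± 0.48. Lower were Klf2, a repressor of the follicular program that drives S1pr1, at -0.94 ± 0.11 (adjusted p = 0.00278), S1pr1, the receptor for exit from lymph nodes, at -1.07 ± 0.11 and Ccr7, the T zone receptor, at -1.33 ± 0.13. Id3, whose product holds back follicular differentiation, fell by 2.41 ± 0.14. Genes on opposite sides of Bcl6, Pdcd1 and Maf on one and Prdm1 on the other, therefore rose in the same comparison. Against labelled Thy1.1 cells, labelled GFP cells had 6 of the 20 higher and 3 lower, beside 8.01% and 6.82% of all tested genes. Prdm1 differed by 2.15 ± 0.18 there (adjusted p = 0.000842).

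**Figure D4:**
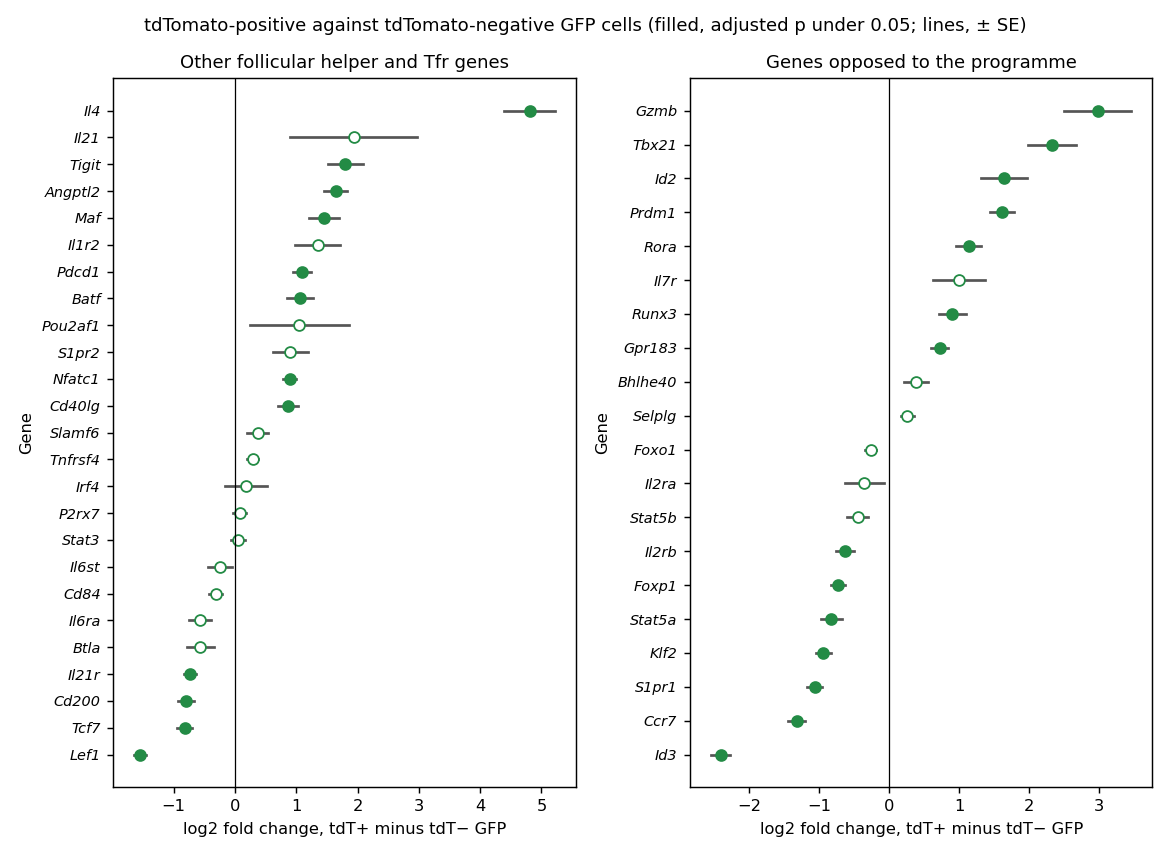
Log2 differences between labelled and unlabelled GFP cells (horizontal axes) for other follicular genes and for genes opposed to the program; filled points passed an adjusted p of 0.05 and lines are ± SE. Ascl2 and Sostdc1, at 0 counts in both unlabelled libraries, are left out; Maf at 1.46 and Prdm1 at 1.61 lie to the right, Tcf7 at -0.82 and Klf2 at -0.94 to the left.

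Further lists were built around single members. Their counts stand beside 6.24% of all tested genes called higher and 6.40% called lower with the label among GFP cells, and 8.01% and 6.82% for GFP against Thy1.1 cells among labelled cells. Of 18 genes that signal with or control ICOS and CD28, 1 was higher and 3 lower with the label among GFP cells. Ctla4, the inhibitory relative of Icos, rose by 1.07 ± 0.15 (SE; adjusted p = 0.00520), and Pik3r1, a regulatory subunit of PI3 kinase, fell by 0.78 ± 0.13. Labelled GFP against labelled Thy1.1 cells gave 3 higher, with Ctla4 at 1.39 ± 0.15 and Cd28 at 0.71 ± 0.13, and 4 lower, among them Zc3h12a, whose product degrades Icos mRNA, at -0.94 ± 0.18. Fewer of the 18 were called without labelled GFP library 3, the one with erythroid markers, which leaves 1 library in that population. Such a fit also changes how many of all genes are called. For the reporter among labelled cells the fewest were called without a labelled Thy1.1 library. For the label among GFP cells the fewest were called without unlabelled GFP library 4. Why calls were lost here and below was not tested.

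Of 13 tested SLAM receptors and partners of SAP, 1 was higher and 2 lower with the label among GFP cells. Sh2d2a, which encodes another SH2 adaptor of T cells, rose by 0.55 ± 0.09 (SE; adjusted p = 0.00839), and Prkcq, the kinase that SAP helps to recruit, fell by 0.60 ± 0.09. Slamf6, the receptor Ly108, rose in labelled GFP against labelled Thy1.1 cells by 0.71 ± 0.17 (adjusted p = 0.0304), where 2 of the 13 were higher and 3 lower. Fewer were called lower without labelled GFP library 3.

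Of 12 genes around the TOX factors and their NFAT input, 3 were higher and 2 lower with the label among GFP cells. The calls lower were lost without either of the libraries numbered 3. Nfatc1 rose by 0.89 ± 0.10 (SE; adjusted p = 0.00263) and Lag3, an inhibitory receptor, by 1.39 ± 0.21, while Nr4a1, an immediate target of the antigen receptor, fell by 0.80 ± 0.17. Lag3 was also higher in GFP cells within both label states, at 2.55 ± 0.22 among labelled and 1.86 among unlabelled cells (adjusted p = 0.0329). Of 14 BCL6 corepressor genes 0 were higher and 3 lower, among them Bcor at -0.60 ± 0.14. Those calls too were lost without either library numbered 3. Of 11 receptors that place T cells within the node, 2 were higher, Cxcr3 and Gpr183, and 3 lower, among them Ccr7, given above.

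The genes whose levels over the 8 libraries were closest to each member, by the root mean square distance of centred log2 CPM among 9663 genes with at least 5 CPM on average, differed from member to member. For Icos they were Grn at a distance of 0.13, H1f0 at 0.18 and Prdm1 at 0.18. For Tox2 they were Aplp1 at 0.18, Prelid2 at 0.20 and Nav2 at 0.25. Those nearest to Sh2d1a were Smpdl3a at 0.12, Trib1 at 0.13 and Unc93b1 at 0.14, and those nearest to Cxcr5 were Setbp1 at 0.12, Ispd at 0.14 and Prkar2a at 0.17. Bcl6 lay nearest to Mre11a at 0.07 and Tox nearest to Rp9 at 0.05, and both members vary little over the libraries. No member was among the 3 nearest genes of another.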

How the data were processed

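Raw, unnormalized read counts per gene were deposited by the authors in 1 table with 8 columns, 1 per library. RNA was amplified by a SMART-Seq v4 kit, which does not mark strand, and read as paired ends, per the labels' protocols. No source used here gives the aligner, counter, annotation or build, and the submitters' processing notes name DESeq. The titles number the GFP libraries 1 and 2 where the table says 3 and 4, so these columns were matched to populations only. The 8 rows without a gene name, 0.0215% to 0.0264% of a library, were left out.

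Genes were kept by the edgeR 4.0.16 filter with a minimum count of 10, scaled by TMM (factors 0.978 to 1.02) and fitted in R 4.3.3 by 1 robust quasi-likelihood model over all 8 libraries, with a mean per population, 4 residual degrees of freedom and a common biological coefficient of variation of 0.399. P-values were adjusted by Benjamini-Hochberg over 13989 genes at a threshold of 0.05, and standard errors come from the F statistic. DESeq2 1.42.0, RLE factors, library totals, other filters, a non-robust fit, only the libraries compared, and leaving out each library were alternatives. Exon lengths and overlaps came from GENCODE M21. Of the symbols, 97.06% matched a separate reference list of gene names. Simulated data for the label among GFP cells held 13696 genes, with 50 changed at each fold of 2, 4, 0.5 and 0.25. Of these, 34% of 2-fold and 86% of 4-fold increases were recovered. So were 46% of decreases to 0.5 and 72% of those to 0.25, with 4 false calls. In the measured data 1768 genes were called, and the adjusted threshold depends on how many genes change. The recovered shares are therefore not the power for the genes described here.

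The 6 genes, 7 further gene lists and 8 marker lists were chosen with earlier results of these data known. The text names the 6 genes, 9 genes of interest whatever their values, up to 4 genes of each list by adjusted p, and the 3 nearest genes of each member. Tbx21, Id2, Ascl2, Sostdc1, Cd200, S1pr2, Cxcr3, Cxcl13, Bcl9l, Tenm1 and single values outside the rule's comparisons were chosen after their values were seen. Some genes are not reported here by name, though list counts still hold them.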

Additional observations from a re-analysis of the deposited data

Results flagged for a closer look

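The label difference differed between the reporters for 2 genes named here beside the 6 members, by the interaction test of edgeR over all genes. Id3 had an interaction of -2.42 on the log2 scale (adjusted p = 0.0129) and Lef1 one of -1.13 (adjusted p = 0.0165). Id3 stood at 166 and 155 CPM in unlabelled and 176 and 148 CPM in labelled Thy1.1 cells, and at 160 and 173 CPM in unlabelled and 33.7 and 28.7 CPM in labelled GFP cells. None of the 6 members passed the interaction test.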

How the results depend on the processing

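Called counts below are of the 6 genes. For the reporter among labelled cells 2 were called, and 1 to 2 when leaving out a library. For the reporter among unlabelled cells 0 were called, but 1 (Icos) with DESeq2, without the filter on low counts and with a floor of 5 CPM on the mean, and 0 to 1 when leaving out a library. For the label among GFP cells 3 were called and 2 to 4 in the alternatives. For the label among Thy1.1 cells 0 became 3 with DESeq2. For labelled GFP against unlabelled Thy1.1 cells 3 became 1 to 3 when leaving out a library, with 1 left without unlabelled Thy1.1 library 1. For labelled Thy1.1 against unlabelled GFP cells 1 became 0 with RLE factors, the non-robust fit or only the 4 libraries compared, 2 with the 5 CPM floor, 3 with DESeq2, and 0 to 2 when leaving out a library. The interaction went from 0 to 1 (Tox) with DESeq2. The causes were not tested.

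Signs turned only for differences that passed no test, 1 with library totals (Bcl6 in labelled Thy1.1 against unlabelled GFP cells, 0.012) and the others when leaving out a library. The ranges when leaving out each library were, for the reporter among unlabelled cells, -0.063 to 0.362 for Bcl6, -0.647 to 0.086 for Cxcr5, -0.696 to 0.018 for Tox2 and -0.394 to 0.192 for Sh2d1a. Bcl6 ran from -0.592 to 0.006 for the reporter among labelled cells, -0.455 to 0.162 for labelled GFP against unlabelled Thy1.1 cells and -0.222 to 0.219 for labelled Thy1.1 against unlabelled GFP cells. Cxcr5 ran from -0.190 to 0.657 for labelled GFP against unlabelled Thy1.1 cells. The interaction ran from -0.613 to 0.293 for Cxcr5 and from -0.365 to 0.275 for Sh2d1a.

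Over all genes, DESeq2 called 3164 against 2074 for the reporter among labelled cells, 581 against 23 among unlabelled cells, 2974 against 1768 for the label among GFP cells, 148 against 0 among Thy1.1 cells, 939 against 213 for labelled Thy1.1 against unlabelled GFP cells and 568 against 62 for the interaction. With only the 4 libraries compared, the label among GFP cells gave 300 genes, the reporter among unlabelled cells 1, the label among Thy1.1 cells 2, and labelled Thy1.1 against unlabelled GFP cells 121. No filter gave 98 genes among unlabelled cells and 109 for the interaction, and the 5 CPM floor gave 123 and 129, with 353 for labelled Thy1.1 against unlabelled GFP cells and 1 for the label among Thy1.1 cells. Leaving out a library gave 481 to 2118 and 0 to 75 genes for the reporter, 458 to 1801 for the label among GFP cells, 1348 to 3334 and 5 to 318 for the mixed comparisons and 0 to 119 for the interaction. The lowest counts came without a labelled Thy1.1 library for the reporter among labelled cells (481 and 524) and without unlabelled GFP library 4 for the label among GFP cells. An arm left with 1 library was assumed to vary like the others.

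Samples of the same number did not deviate together (correlation 0.0509 among Thy1.1 and 0.0560 among GFP libraries). With the replicate block, 3 of the 6 genes were called for the label among GFP cells, Sh2d1a at an adjusted p of 0.0195, and 2039 genes in all, and 0 members for the label among Thy1.1 cells and for the interaction. The lowest count of any member in a library was 829, for Bcl6.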

Other observations

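Averaging the label difference over both reporters, a comparison chosen after seeing the data, called 9.60% of all tested genes. Of 13989 genes, 607 were called higher and 736 lower. Tox2 rose by 1.39 ± 0.18 on the log2 scale (SE; adjusted p = 0.00522 from edgeR), Icos by 1.04 ± 0.13 (adjusted p = 0.00503) and Sh2d1a by 0.70 ± 0.13 (adjusted p = 0.0178). Each was higher in 4 of 4 labelled libraries than in the unlabelled ones of the same reporter. The share of all genes with that pattern is not given here. Tox2 and Icos were called without each of the 8 libraries in turn, and Sh2d1a without 4 of 8, lost when any Thy1.1 library was left out. Cxcr5 stood at 0.62 ± 0.23 (adjusted p = 0.128), Tox at 0.03 and Bcl6 at -0.06. Averaging the reporter difference over both label states called 14.5% of genes, 1119 higher and 914 lower in GFP cells. Icos was higher in GFP cells by 1.44 ± 0.13 (SE; adjusted p = 0.00123 from edgeR) and was called without each of the 8 libraries. None of the other 5 members was called.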
